A study of Mus musculus with 5 samples.

Results

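Splicing factor genes were taken from the table by symbol: the SR protein genes (Srsf followed by a number), the heterogeneous nuclear ribonucleoprotein (hnRNP) genes (Hnrnp), the SF3a and SF3b subunit genes (Sf3), the small nuclear ribonucleoprotein (snRNP) protein genes (Snrp) and the RNA-binding motif genes (Rbm followed by a number). Of 24419 rows, 92 matched, with 11 Srsf, 20 Hnrnp, 9 Sf3, 12 Snrp and 40 Rbm symbols. The Rbm rows include the antisense RNAs Rbm3os and Rbm46os. RNA came from bone marrow-derived macrophages (BMMs) of C57BL/6 mice (C57BL6/J in the design text), grown with 50 ng/ml M-CSF for 5 days and activated with 100 ng/ml LPS. They were then kept for 18 h with PBS (2 samples) or with 100 ng/ml recombinant Sema3G (3 samples), a secreted semaphorin. The comparison asks how the BMM transcriptome differs when Sema3G is added, and the M-CSF and LPS treatments were common to both groups. The labels do not say whether the samples came from separate cultures or mice, so p-values measure only the spread between these samples, which may be technical.

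Splicing removes introns from the pre-mRNA in the spliceosome, which is built from small nuclear RNAs and their proteins. A ring of Sm proteins surrounds most of these RNAs, and the SF3a and SF3b complexes belong to the U2 particle, which binds the branch point of the intron. SR proteins bind exons and mostly favour their inclusion, whereas hnRNPs coat the nascent RNA and often act against it. Macrophages activated with LPS transcribe many inflammatory genes, whose introns are removed by the same machinery. The libraries read only the 3′ end of each RNA, so they give the total RNA of a splicing factor gene and no measure of splicing or of isoforms.

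A unique molecular identifier (UMI) marked each molecule, and the level of a gene is its UMIs scaled to a common library total (CPM). Library totals were between 1798469 and 2215855 UMIs, of which 77.6% and 75.6% lay on listed genes with PBS and 71.3%, 67.1% and 65.9% with Sema3G. Rn45s, the ribosomal RNA precursor, made up 1.01% and 3.19% of PBS and 6.31%, 7.40% and 7.88% of Sema3G library totals. Both values moved with the group, and their part in the results was not tested. All 7 macrophage markers were detected, at a sum of 8514 to 11668 CPM with PBS and 8211 to 8529 CPM with Sema3G. Of the other cell types, 1 of 8 lymphoid markers had a UMI (Cd4; Cd3e and Ncr1 were among those at 0), with sums of 3.75 to 9.89 CPM with PBS and 2.30 to 6.12 CPM with Sema3G. Of the 7 neutrophil markers listed, 5 had UMIs (116 to 169 and 103 to 133 CPM; Elane and Cxcr2 were at 0). All 6 stromal markers had UMIs (8.57 to 23.6 and 6.77 to 17.5 CPM). Of 5 dendritic cell markers 2 had UMIs and of 5 mast cell and basophil markers 1 had UMIs, at sums of at most 0.556 and 0.461 CPM (Flt3 and Xcr1, and Ms4a2 and Fcer1a, were at 0). None of these markers was called different, and their part in the results was not tested.

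A mean of at least 1 CPM over the 5 libraries was required for the test, and 81 of the 92 genes passed it (10 Srsf, 20 Hnrnp, 9 Sf3, 11 Snrp and 31 Rbm). The other 11 had at most 2 UMIs in all. Srsf12 and Rbm24 had 1 UMI over all 5 libraries and Rbm11, Rbm20 and Rbm3os had 2. Rbm20 is known as a splicing regulator of heart muscle and Rbm24 of striated muscle. Snrpn, which encodes a brain-enriched Sm protein close to that of Snrpb, was at 0 in every library, as were Rbm4, Rbm31y, Rbm44, Rbm46 and Rbm46os. A count of 0 allows up to 3 UMIs, or 1.35 to 1.67 CPM by library. Snurf and Gm21992, which overlap Snrpn and Rbm4 on the same strand, were listed at 0 too. The sources used here do not say how reads on overlapping genes or with several matches were counted, so for Snrpn and Rbm4 a count of 0 may not bound the RNA. In bulk RNA, fewer cells of a type and less RNA per cell cannot be told apart.

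No splicing factor gene was called different between the groups. By limma on log2(CPM + 1), with Benjamini-Hochberg adjustment over the 10088 genes tested, 0 of the 81 genes passed an adjusted p of 0.05 in either direction. Of all tested genes 1.59% were called higher and 0.218% lower. The smallest adjusted p of the 81 was 0.0789, for Srsf9 (limma). On the recovered UMIs edgeR called 2 of the 74 genes it tested higher (Rbm26 and Snrpd3; 2.7%, beside 4.05% of all genes) and DESeq2 1 of 75 (Rbm25; 1.33%, beside 2.77%). Both called 0 lower, beside 0.0491% and 0.012% of all genes. Without Sema3G replicate 1, limma called 1 of the 81 higher (Hnrnpr; 1.23%, beside 3.01% of all genes) and 5 lower (Srsf7, Srsf9, Sf3b5, Sf3b6 and Snrpb; 6.17%, beside 5.49%), and without any other single library it called 0. At an unadjusted p under 0.05, 7 of the 81 (8.64%) were higher with Sema3G and 12 (14.8%) were lower, beside 6.83% and 14.2% of all tested genes. All 3 Sema3G libraries lay above both PBS libraries for 9 genes (11.1%) and below both for 26 (32.1%), against 11.9% and 26.5% of all tested genes, and the groups overlapped for the other 46. These shares lie near the background.

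The scaling sets how many genes lie on each side. The median log2 fold change of all tested genes was -0.22, and after scaling by edgeR's TMM factors it was -0.038. After that scaling 16 of the 81 genes (19.8%) were higher and 11 (13.6%) lower with no overlap between groups, beside 17.4% and 15.9% of all tested genes, and among all genes 322 were called higher (3.19%) and 3 lower (0.0297%), where unscaled CPM gave 160 and 22. It called 2 of the 81 higher (Rbm25 and Snrpd3; 2.47%). Of the genes lower without overlap in CPM, 15 overlapped after TMM scaling, and 7 that overlapped in CPM lay higher without overlap. The median log2 fold change of the 81 genes was -0.11, which is 0.115 above that of all tested genes, while their mean was -0.13 and 0.0048 above. Their median level, less the median level of all tested genes, was 0.67 and 0.69 (log2) under PBS and 0.60, 0.58 and 0.62 under Sema3G, so this measure has the opposite sign to the median of the fold changes. The summed level of the 81 genes was 4691 and 4199 CPM with PBS and 4268, 4137 and 4156 CPM with Sema3G, and the groups overlapped. After TMM scaling it was 4113 and 4041 against 4167, 4485 and 4654, with the Sema3G libraries higher.

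The families lay at different places around these values, and the difference between them was not tested. The median log2 fold change was -0.51 for the 11 Snrp genes, -0.41 for the 9 Sf3 genes and -0.38 for the 10 Srsf genes. It was -0.086 for the 20 Hnrnp genes and -0.040 for the 31 Rbm genes. Relative to the median of all tested genes these are -0.29, -0.18, -0.16, 0.14 and 0.19. Every Sema3G value was under both PBS values for 5 Srsf (50.0%), 5 Sf3 (55.6%), 5 Snrp (45.5%), 4 Hnrnp (20%) and 7 Rbm genes (22.6%), beside 26.5% of all tested genes. Every Sema3G value was above both for 0 Srsf, 1 Sf3 (11.1%), 1 Snrp (9.09%), 2 Hnrnp (10%) and 5 Rbm genes (16.1%), beside 11.9%. After TMM scaling the lower counts were 3 Srsf (30.0%), 3 Sf3 (33.3%), 3 Snrp (27.3%), 2 Hnrnp (10%) and 0 Rbm, beside 15.9%, and the higher counts were 2 Srsf (20%), 2 Sf3 (22.2%), 1 Snrp (9.09%), 3 Hnrnp (15.0%) and 8 Rbm (25.8%), beside 17.4%.

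**Figure D1:**
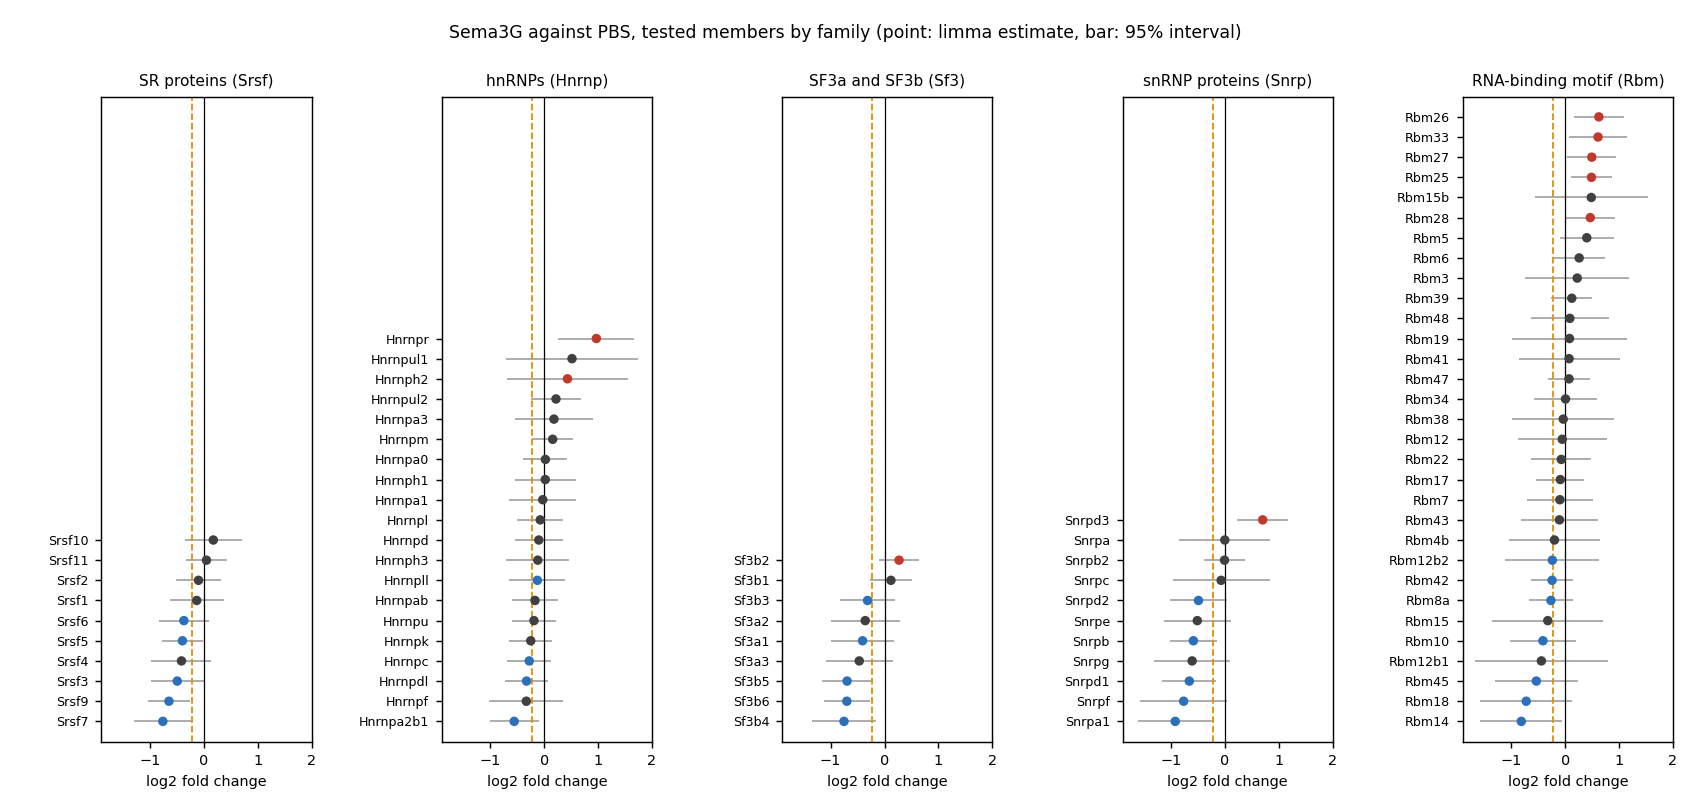
Log2 fold change (Sema3G against PBS, limma on log2(CPM + 1)) of each of the 81 tested genes in 5 panels by family, with 95% intervals as bars; the dashed line is the median of all tested genes, -0.22. Red points mark the 9 genes whose Sema3G libraries all lie above both PBS libraries, blue points the 26 whose Sema3G libraries all lie below, and dark points the 46 that overlap.

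Srsf9, an SR protein with a short arginine-serine tail, had 306 and 339 UMIs under PBS and 204, 264 and 221 under Sema3G. As CPM these were 175 ± 9.44 CPM (SD, n = 2) and 111 ± 8.80 CPM (SD, n = 3), and the groups did not overlap. The log2 fold change stood at -0.65 (standard error, SE, 0.18; adjusted p = 0.0789 by limma), and the gene spans chr5:115327177-115333080 on the plus strand (GRCm38). Srsf7, which also exports mRNA from the nucleus, had 80 and 58 UMIs under PBS and 46, 45 and 41 under Sema3G, again without overlap (log2 fold change -0.76, SE 0.26, adjusted p = 0.122 by limma). Srsf5 had 209 and 241 UMIs under PBS and 160, 209 and 203 under Sema3G. In CPM these groups did not overlap, at 122 ± 10.03 (SD, n = 2) and 92.3 ± 2.90 (SD, n = 3), with a log2 fold change of -0.40 (adjusted p = 0.228 by limma). After TMM scaling the Srsf5 groups overlapped, at -0.19. Srsf3, the smallest SR protein, had 93 and 85 UMIs against 77, 62 and 71, with no overlap in CPM (log2 fold change -0.49, adjusted p = 0.235 by limma; -0.29 after TMM scaling). The adjusted p of Srsf9 was 0.0338 without Sema3G replicate 1, and that of Srsf7 was 0.0492 (limma).

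Of the other SR protein genes, Srsf6 had 89 and 93 UMIs under PBS and 82, 79 and 73 under Sema3G, without overlap in CPM (log2 fold change -0.37, adjusted p = 0.340 by limma) but with overlap after TMM scaling. The remaining 5 tested genes overlapped in CPM. Srsf11, which contacts U2AF at the 3′ splice site, had 347 and 395 UMIs under PBS and 406, 449 and 426 under Sema3G, and in CPM its groups overlapped (201 ± 14.7, n = 2, and 208 ± 15.5, n = 3; SD; log2 fold change 0.05). The groups also overlapped for Srsf1, the founding SR protein, whose log2 fold change was -0.13 (95% interval -0.63 to 0.37). Srsf2, a component of nuclear speckles, was at -0.10 (95% interval -0.51 to 0.32) and Srsf10, a splicing repressor when dephosphorylated, was at 0.18 (95% interval -0.35 to 0.71). Over all alternatives Srsf2 ranged from -0.23 to 0.18. After TMM scaling the signs of Srsf1 and Srsf2 turn, and Srsf10 and Srsf11 lay higher without overlap, at 0.37 and 0.25. With 1 library left out Srsf10 went from 0.04 (without PBS replicate 1) to 0.32 (without PBS replicate 2). The summed level of the 10 tested genes was 824 and 836 CPM with PBS and 731, 667 and 667 CPM with Sema3G, with no overlap. After TMM scaling the sums were 723 and 805 against 713, 724 and 747, and the groups overlapped. Many SR protein genes are known to hold an exon that, when included, sends the mRNA to nonsense-mediated decay (NMD). GENCODE M21 lists an NMD transcript for 9 of the 10 Srsf genes (90.0%), beside 35 of the 81 genes (43.2%) and 31.2% of the 9468 coding genes tested, and 3′ end counts do not separate such transcripts from the others.

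In SF3b, the small subunits Sf3b4, Sf3b5 and Sf3b6 each had its 3 Sema3G values below its PBS values, at log2 fold changes from -0.75 to -0.70. The large subunits were spread, from -0.32 for Sf3b3 to 0.12 for Sf3b1 and 0.27 for Sf3b2. Sf3b6, the subunit that lies beside the branch-point adenosine, had 189 and 159 UMIs under PBS and 116, 122 and 116 under Sema3G, or 94.5 ± 13.2 CPM (SD, n = 2) and 57.7 ± 5.96 CPM (SD, n = 3). Its log2 fold change was -0.70 (SE 0.20, adjusted p = 0.0820 by limma). Sf3b5, a small subunit of the SF3b core, had 139 and 117 UMIs against 93, 80 and 88 (log2 fold change -0.70, SE 0.22, adjusted p = 0.106 by limma). Sf3b4, an RNA recognition motif protein that contacts the pre-mRNA upstream of the branch point, had 42 and 39 UMIs against 26, 29 and 23 (log2 fold change -0.75, SE 0.29, adjusted p = 0.153 by limma). For none of the 3 did the groups overlap in CPM. Without Sema3G replicate 1 the adjusted p was 0.0266 for Sf3b6 and 0.0280 for Sf3b5 (limma). In that setting 5.49% of all tested genes were called lower, beside 0.218% with all libraries. The log2 fold changes of Sf3b6 and Sf3b5 were -0.56 and -0.55 without PBS replicate 1, and -0.84 for both without PBS replicate 2.

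Sf3b1, the large scaffold that holds the branch helix and is mutated in myeloid neoplasms, had 265 and 243 UMIs under PBS and 246, 344 and 341 under Sema3G. Its groups overlapped in CPM, and its log2 fold change was 0.12 (95% interval -0.26 to 0.50). After TMM scaling Sf3b1 was higher without overlap, at 0.32, and with 1 library left out it went from 0.037 (without PBS replicate 2) to 0.20 (without PBS replicate 1). Sf3b2 had 299 and 280 UMIs against 335, 411 and 426, with all Sema3G libraries above both PBS libraries (log2 fold change 0.27, adjusted p = 0.389 by limma; 0.47 after TMM scaling). Sf3a1, the U2 subunit that joins SF3a to the particle, had a log2 difference of -0.41 (adjusted p = 0.402 by limma), with 35 and 42 UMIs against 33, 31 and 31 and no overlap in CPM. After TMM scaling its groups overlapped, at -0.22. Of the UMIs on Sf3b1 to Sf3b6, the small subunits Sf3b4, Sf3b5 and Sf3b6 held 37.4% (95% exact binomial interval 34.4 to 40.5) and 35.1% (32.0 to 38.3) with PBS. With Sema3G they held 27.1% (24.1 to 30.2), 22.3% (19.8 to 25.004) and 21.7% (19.2 to 24.3), and the groups did not overlap. Phf5a, another small subunit, had 169 and 132 UMIs under PBS and 139, 115 and 115 under Sema3G, and its groups overlapped in CPM (log2 fold change -0.43, adjusted p = 0.272 by limma). With Phf5a counted among the small subunits, they held 46.5% and 43.4% with PBS and 37.1%, 30.1% and 29.4% with Sema3G, without overlap. Such a share does not depend on the library total. It was chosen after its values were seen and was not tested, and its intervals cover counting error only. The genes also differ in the length of their longest coding transcript. This is 1915, 3841, 1180 and 1663 nt for Sf3b4, Sf3b5, Sf3b6 and Phf5a, and 6195, 3222 and 4525 nt for Sf3b1, Sf3b2 and Sf3b3. The part of length in these shares was not tested.

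RefSeq promoter windows (GRCm38.p6, 250 bases before to 50 after the start) were available for 69 of the 81 genes, as 87 windows. They were searched on both strands for the ETS core CCGGAAG, the CCAAT box (CCAAT), the NRF1 core GCATGCGC and the TATA box (TATAAA). The ETS core is the site of the large ETS family of factors, found at many promoters of widely expressed genes. It was in 7 of the 8 windows of Sf3 genes (87.5%), which stand for 6 of 7 genes because Sf3b2 has 2 nearly identical windows, and in 46.2% of Srsf, 40.0% of Snrp, 17.2% of Rbm and 14.8% of Hnrnp windows. Over the 87 windows the share was 29.9%, beside 19.1% of the windows of tested genes and 8.86% of all windows. The CCAAT box was in 43.7% of the 87 windows, 37.3% of the windows of tested genes and 37.4% of all windows, and in 63.0% of the Hnrnp windows. The NRF1 core was in 3.45% of the 87 windows, 5.53% of those of tested genes and 2.71% of all windows, and TATAAA in 10.3%, 6.79% and 13.6%. A match is a run of letters and not a shown binding site. The following 3 windows are shown because they belong to genes on both sides of the median: Sf3b6 (chr12:4817358-4817657, plus strand) with ETS cores on both strands, Sf3b2 (chr19:5295408-5295707, minus strand) with an ETS core and a CCAAT box, and Snrpd3 (chr10:75517792-75518091, plus strand) with CCAAT boxes on both strands and no ETS core. Capitals mark the matches, which do not overlap each other.
Sf3b6: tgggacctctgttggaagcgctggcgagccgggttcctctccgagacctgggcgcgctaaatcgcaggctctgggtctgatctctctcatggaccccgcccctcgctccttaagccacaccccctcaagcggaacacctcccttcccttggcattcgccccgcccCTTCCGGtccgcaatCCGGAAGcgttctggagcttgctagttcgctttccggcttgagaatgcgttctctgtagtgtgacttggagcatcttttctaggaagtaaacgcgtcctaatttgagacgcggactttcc
Sf3b2: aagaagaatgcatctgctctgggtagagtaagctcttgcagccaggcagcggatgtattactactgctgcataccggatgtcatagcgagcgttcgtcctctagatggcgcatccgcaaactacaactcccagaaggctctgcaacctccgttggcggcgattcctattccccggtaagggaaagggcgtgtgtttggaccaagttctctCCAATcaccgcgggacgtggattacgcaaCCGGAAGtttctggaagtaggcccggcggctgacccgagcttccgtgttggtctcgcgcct
Snrpd3: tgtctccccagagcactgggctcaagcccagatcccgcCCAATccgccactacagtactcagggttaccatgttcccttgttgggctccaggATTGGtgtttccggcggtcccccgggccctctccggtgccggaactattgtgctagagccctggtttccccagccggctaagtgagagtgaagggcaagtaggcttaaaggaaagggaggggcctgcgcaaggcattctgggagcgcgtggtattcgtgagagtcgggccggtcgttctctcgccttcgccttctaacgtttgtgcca

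Among the snRNP genes, most of the Sm ring lay below the median and Snrpd3 above it. The ring is encoded by Snrpb, Snrpd1, Snrpd2, Snrpd3, Snrpe, Snrpf and Snrpg. Of these 7, 6 had negative log2 fold changes, from -0.77 (Snrpf) to -0.49 (Snrpd2), as had 6805 of the 10088 genes tested. In CPM 4 of the 7 lay lower without overlap (57.1%, beside 26.5% of all tested genes), and after TMM scaling 2 (28.6%, beside 15.9%). Snrpb, which encodes the B and B′ proteins, had 168 and 153 UMIs under PBS and 125, 112 and 118 under Sema3G (log2 fold change -0.59, SE 0.21, adjusted p = 0.135 by limma). Snrpd1 had 84 and 64 UMIs against 46, 54 and 53 (log2 fold change -0.66, SE 0.24, adjusted p = 0.138 by limma). The groups did not overlap for either gene, and without Sema3G replicate 1 the adjusted p of Snrpb was 0.0345 (limma). In that setting 5.49% of all tested genes were called lower, beside 0.218% with all libraries. The log2 fold change of Snrpb was -0.50 without PBS replicate 1. After TMM scaling Snrpb was at -0.38. Snrpd3 had 48 and 61 UMIs under PBS and 80, 99 and 123 under Sema3G, or 29.5 ± 4.44 CPM (SD, n = 2) and 48.6 ± 6.998 CPM (SD, n = 3). Its log2 fold change was 0.70 (SE 0.23, adjusted p = 0.111 by limma). It had adjusted p values of 0.0420 by limma after TMM scaling, 0.0954 by DESeq2 and 0.0422 by the quasi-likelihood test of edgeR on whole UMIs.

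Snrpd3 held 9.38% (95% exact binomial interval 6.99 to 12.2) and 13.9% (10.8 to 17.4) of the Sm ring UMIs with PBS. With Sema3G it held 19.6% (15.9 to 23.8), 24.2% (20.1 to 28.7) and 30.1% (25.7 to 34.8). The groups did not overlap, and this share too was chosen after its values were seen and was not tested. The longest coding transcript is 3036 nt for Snrpd3 and 669 to 1420 nt for the other 6 ring genes. The part of this length in the share was not tested. Snrpd3 spans chr10:75517551-75537381 on the plus strand (GRCm38) and overlaps Gucd1, on the opposite strand, over 422 bp that hold the 3′ end of neither gene. Gucd1 had 21 and 8 UMIs under PBS and 12, 9 and 11 under Sema3G. The SMN complex loads the Sm proteins onto the RNA, and each enters the ring in equal number. Snrpa1, the U2 A′ protein, had 55 and 32 UMIs against 29, 19 and 24, without overlap (log2 fold change -0.92, SE 0.33, adjusted p = 0.138 by limma). Without PBS replicate 1 it was at -0.53 (adjusted p = 0.550 by limma). Its partner Snrpb2, the U2 B″ protein, was at -0.01 (95% interval -0.39 to 0.37), with 255 and 234 UMIs against 224, 303 and 291.

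**Figure D2:**
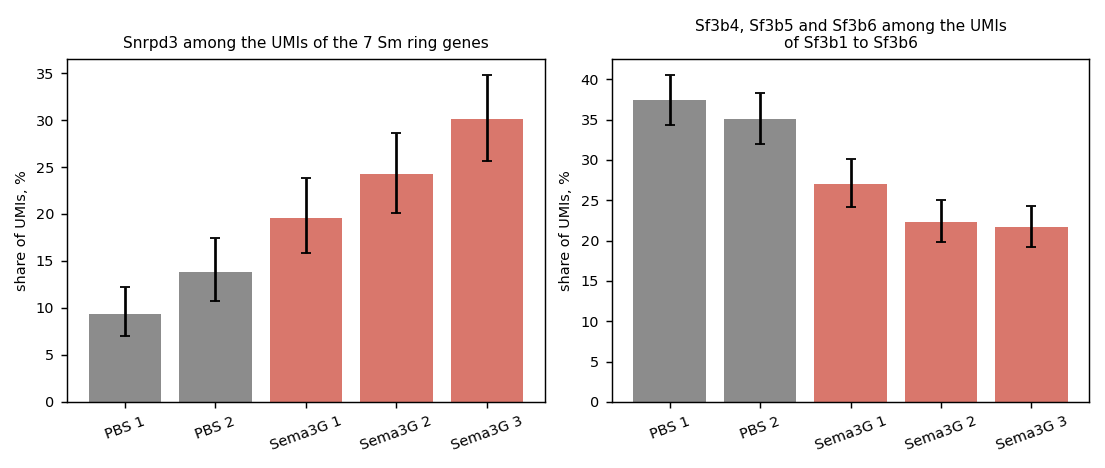
Share of UMIs in percent for each library (grey PBS, red Sema3G), with 95% exact binomial intervals that cover counting error only: left, Snrpd3 among the 7 Sm ring genes; right, Sf3b4, Sf3b5 and Sf3b6 among Sf3b1 to Sf3b6. Snrpd3 held 9.38% and 13.9% with PBS and 19.6% to 30.1% with Sema3G, and the small SF3b subunits 37.4% and 35.1% against 21.7% to 27.1%.

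The groups overlapped for 14 of the 20 hnRNP genes (70.0%), beside 61.6% of all tested genes. Hnrnpr, an RNA-binding protein close to Syncrip, had 12 and 21 UMIs under PBS and 23, 41 and 52 under Sema3G. These are 8.92 ± 3.29 CPM (SD, n = 2) and 18.4 ± 5.59 CPM (SD, n = 3), without overlap, and the log2 fold change was 0.97 (SE 0.34, adjusted p = 0.132 by limma). With 1 library left out its log2 fold change was 0.62 without PBS replicate 1 (adjusted p = 0.446 by limma) and 1.19 without Sema3G replicate 1 (adjusted p = 0.0456 by limma). Hnrnpa2b1, which binds nascent transcripts and sorts RNA in the cytoplasm, had 145 and 107 UMIs against 93, 98 and 90, without overlap in CPM (log2 fold change -0.56, SE 0.22, adjusted p = 0.165 by limma). It was at -0.32 without PBS replicate 1 (adjusted p = 0.584 by limma) and -0.36 after TMM scaling. Hnrnpdl, close to Hnrnpd, had 165 and 161 UMIs against 136, 151 and 146, without overlap in CPM (log2 fold change -0.33, adjusted p = 0.328 by limma). After TMM scaling it was at -0.13.

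For the following hnRNPs the intervals of the difference held 0. Hnrnpa1, a splicing repressor that competes with Srsf1, had 24 and 27 UMIs under PBS and 25, 33 and 26 under Sema3G, and a log2 fold change of -0.03 (95% interval -0.65 to 0.59). Hnrnpu, a nuclear scaffold protein, was at -0.19 (95% interval -0.59 to 0.21), with 451 and 342 UMIs against 360, 418 and 374. Hnrnpk, a poly(C)-binding protein, was at -0.25 (95% interval -0.65 to 0.15; -0.06 without PBS replicate 1, -0.44 without PBS replicate 2 and -0.046 after TMM scaling), with 394 and 311 UMIs against 303, 368 and 315. Groups overlapped for these 3 genes. Hnrnpll, known for Ptprc exon skipping in lymphocytes, had 46 and 45 UMIs against 38, 50 and 52, with no overlap in CPM and a log2 fold change of -0.13 (95% interval -0.64 to 0.39). The signs of Hnrnpa1, Hnrnpu and Hnrnpll turn under TMM scaling, and the Hnrnpll groups then overlap. Hnrnpa1 has many processed pseudogenes, and the sources used here do not say how reads matching several places were counted, so its level is uncertain.

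**Figure D3:**
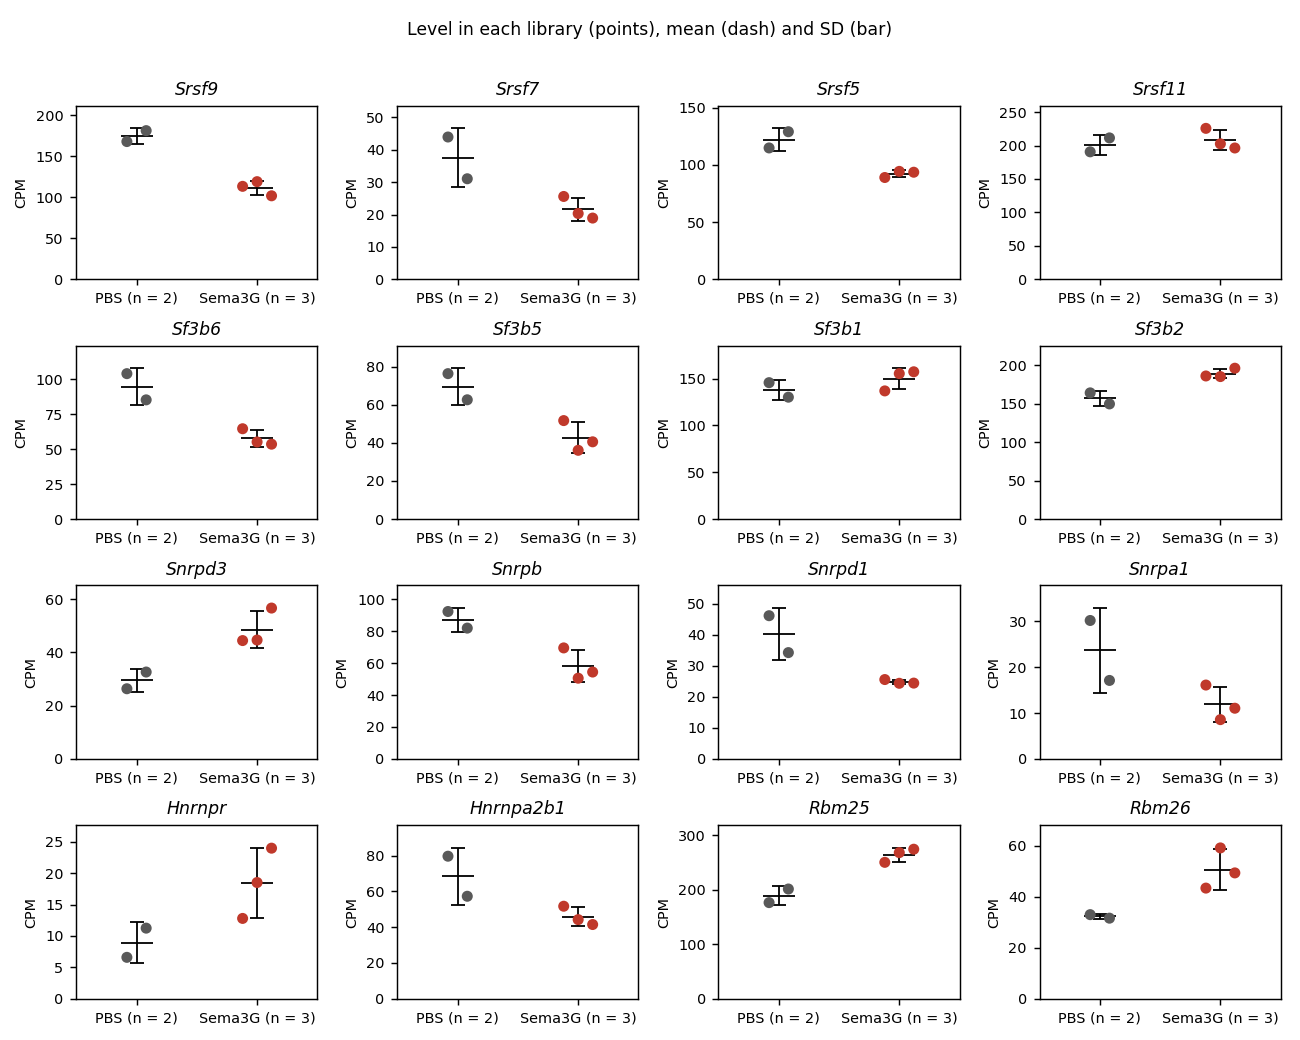
CPM of 16 splicing factor genes in each library (grey PBS, n = 2; red Sema3G, n = 3), with means as dashes and SDs as bars; each axis starts at 0. Srsf9, Sf3b6, Snrpb and Hnrnpa2b1 have all Sema3G points below the PBS points, Snrpd3, Hnrnpr, Rbm25 and Rbm26 have them above, and Srsf11 and Sf3b1 overlap in CPM but not after TMM scaling.

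All Sema3G libraries lay above both PBS libraries for 5 of the 31 Rbm genes (16.1%), beside 11.9% of all tested genes. Rbm25, which binds exonic enhancers and the U1 particle, had 321 and 376 UMIs under PBS and 450, 594 and 595 under Sema3G. These are 189 ± 17.6 CPM (SD, n = 2) and 264 ± 12.5 CPM (SD, n = 3), without overlap, and the log2 fold change was 0.48 (SE 0.18, adjusted p = 0.146 by limma). Its adjusted p was 0.0389 by limma after TMM scaling, 0.0307 by DESeq2 and 0.0523 by edgeR. Rbm26, a partner of the nuclear exosome's RNA-targeting factors, had 60 and 59 UMIs against 78, 131 and 107, without overlap (log2 fold change 0.62, SE 0.22, adjusted p = 0.137 by limma). By edgeR's test its adjusted p was 0.0442. Rbm33, which has a role in mRNA export, had 31 and 35 UMIs against 47, 56 and 70, without overlap (log2 fold change 0.61, adjusted p = 0.187 by limma).

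Rbm27 and Rbm28 also lay higher without overlap (log2 fold changes 0.49 and 0.46, adjusted p = 0.208 and 0.228 by limma). The other Rbm genes overlapped between groups or lay on the other side. Rbm14, a paraspeckle protein, had 19 and 31 UMIs under PBS and 11, 13 and 21 under Sema3G, without overlap in CPM (log2 fold change -0.82, SE 0.36, adjusted p = 0.209 by limma). It was at -0.51 without PBS replicate 2 (adjusted p = 0.517 by limma), and its groups overlapped after TMM scaling. Rbm8a, the Y14 subunit of the exon junction complex, had 139 and 144 UMIs against 116, 145 and 132, with no overlap in CPM (log2 fold change -0.27, adjusted p = 0.426 by limma). After TMM scaling the Rbm8a groups overlapped, at -0.066. Rbm39, a U2AF-like splicing factor, overlapped between groups in CPM, with 440 and 378 UMIs against 467, 512 and 502 and a log2 fold change of 0.12 (95% interval -0.26 to 0.50). It was higher without overlap after TMM scaling, at 0.32. Rbm5, which regulates exon choice in Fas, also overlapped, with 65 and 81 UMIs against 74, 109 and 152 and a log2 fold change of 0.40 (95% interval -0.10 to 0.90), which was 0.26 without PBS replicate 1, 0.19 without Sema3G replicate 3 and 0.60 after TMM scaling. The cold-induced Rbm3 had few UMIs, 5 and 7 against 9, 5 and 11, and overlapping groups (log2 fold change 0.22, 95% interval -0.74 to 1.19). With 1 library left out it was at 0.05 to 0.52. The summed Rbm level was 1243 and 1155 CPM with PBS and 1309, 1304 and 1348 CPM with Sema3G, with no overlap. After TMM scaling it was 1090 and 1111 against 1278, 1413 and 1510, again with no overlap. Abundant genes weigh most in such a sum, and the mean of Rbm25 alone went from 189 to 264 CPM. In CPM, 15 of the 31 genes had positive log2 fold changes and 16 negative ones.

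The log2 fold changes of the splicing factor genes went with transcript length. The longest coding transcript of each gene in GENCODE M21 was used. Over the 81 genes the Spearman correlation of log2 fold change with this length was 0.57, and over the 9714 tested genes with a length (96.3%) it was 0.31; the points share the same 5 libraries. In 5 equal classes of length over all tested genes, the median log2 fold change of all genes was -0.39, -0.31, -0.25, -0.15 and 0.054 from the shortest to the longest. For the 14, 22, 18, 15 and 12 splicing factor genes in these classes it was -0.57, -0.19, -0.099, 0.16 and 0.15. The median length was 1161 nt for the Snrp genes, 2510.5 nt for Srsf, 2908.5 nt for Hnrnp, 3222 nt for Sf3 and 3327 nt for Rbm. The median log2 fold change was -0.41 for the Sf3 genes and -0.040 for the Rbm genes. Lengths within Sf3 ran from 1180 nt (Sf3b6, log2 fold change -0.70) to 6195 nt (Sf3b1, 0.12), with Sf3b5 at 3841 nt (-0.70). Over all tested genes, the median deviation of the longest class from each gene's own mean, less that of the shortest class, was -0.33 and -0.23 (log2) under PBS and -0.030, 0.26 and 0.34 under Sema3G. The part of transcript length in the results was not tested. With the length trend removed, a setting added after the data were seen, Snrpd3 was the only splicing factor gene called (log2 fold change 0.91, adjusted p = 0.0488 by limma; 1.23% of the 81, beside 1.9% of all genes called higher and 0.154% lower). Many of the other genes lay nearer to 0 under this setting. Srsf9 was at -0.28, Srsf7 at -0.51, Srsf3 at -0.25 and Srsf5 at -0.074. Sf3b6 was at -0.34, Sf3b4 at -0.47, Snrpa1 at -0.57 and Snrpb at -0.22. Hnrnpr was at 0.42, Hnrnpa2b1 at -0.26, Hnrnpdl at -0.097, Hnrnpk at -0.034, Rbm33 at 0.37 and Rbm8a at -0.038. Others lay farther from 0 than in CPM, such as Sf3b2 at 0.47, Rbm5 at 0.60 and Rbm39 at 0.35.

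**Figure D4:**
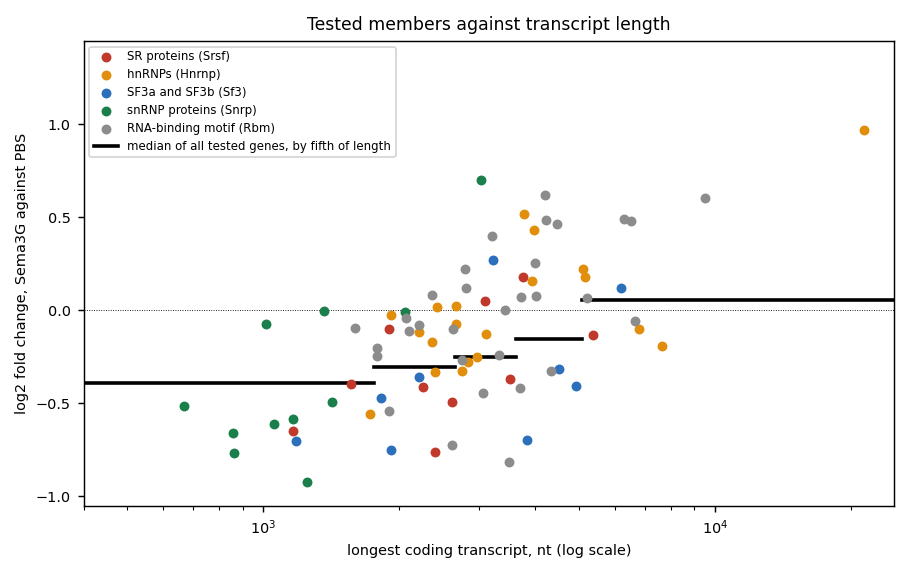
Log2 fold change (Sema3G against PBS) of the 81 tested genes against the length of the longest coding transcript in nt on a log axis, coloured by family; black bars are the medians of all tested genes by length class. The bars go from -0.39 for the shortest class to 0.054 for the longest, and Snrpd3, at 0.70, is the highest of the snRNP genes.

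Genes that act with the splicing factors were looked up in 5 lists. Of 40 spliceosome genes outside the symbol rule, 2 rose (5%, beside 1.59% of all tested genes) and 0 fell by limma. By edgeR and DESeq2 2 of 39 rose (5.13%, beside 4.05% and 2.77% of all genes) and 0 fell. At an unadjusted p under 0.05 it was 6 higher (15.0%) and 4 lower (10%), beside 6.83% and 14.2% of all tested genes. Prpf4b, a kinase of the tri-snRNP, rose from 70 and 99 UMIs to 172, 286 and 305, or from 45.7 ± 10.3 CPM (SD, n = 2) to 122 ± 23.4 CPM (SD, n = 3), and its log2 fold change was 1.39 (SE 0.22, adjusted p = 0.00234 by limma). Prpf38b, a spliceosome-associated protein, rose from 99 and 100 UMIs to 155, 278 and 297 (log2 fold change 1.07, SE 0.21, adjusted p = 0.0168 by limma). The groups did not overlap for either gene. The call of Prpf38b was lost without Sema3G replicate 2 (adjusted p = 0.131 by limma) or replicate 3 (adjusted p = 0.136 by limma). Over all alternatives its log2 fold change lay between 0.93 and 1.34. Without Sema3G replicate 1, limma also called 1 gene of this list lower (2.5%, beside 5.49% of all genes), Bcas2, a subunit of the Prp19 complex.

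Among 30 other splicing regulators 1 rose (3.33%, beside 1.59% of all tested genes) and 0 fell (beside 0.218%) by limma. At an unadjusted p under 0.05 it was 2 higher and 2 lower (6.67% each), beside 6.83% and 14.2%. Zranb2, a zinc finger protein that binds 5′ splice sites, rose from 41 and 67 UMIs to 97, 133 and 147, without overlap (log2 fold change 1.06, SE 0.23, adjusted p = 0.0265 by limma). Its call was lost without PBS replicate 1 (log2 fold change 0.73), Sema3G replicate 2 (adjusted p = 0.152 by limma) or Sema3G replicate 3 (0.175). Over all alternatives its log2 fold change lay between 0.73 and 1.38. Without Sema3G replicate 1, limma also called 2 of 29 genes of this list lower (6.9%, beside 5.49% of all genes), Celf2 and Elavl1, both RNA-binding proteins. The 18 SR protein partners and kinases had 0 calls and a median log2 fold change of 0.24, which is 0.47 above that of all tested genes. At an unadjusted p under 0.05, 4 of them (22.2%, beside 6.83%) were higher and 0 (beside 14.2%) were lower. The median transcript length of these 18 genes was 4252 nt, beside 3097 nt for all tested genes, and its part was not tested. Luc7l3, a U1-associated protein, and Srrm2, a scaffold of nuclear speckles, were called higher by edgeR, by DESeq2 and by limma after TMM scaling (11.1% of the list each time, beside 4.05%, 2.77% and 3.19% of all genes). With unscaled CPM they had log2 fold changes of 0.54 and 0.55 and adjusted p values of 0.115 and 0.143 (limma), and without Sema3G replicate 1 Srrm2 was called higher by limma too (5.56%, beside 3.01%). Clk1, a kinase of SR proteins, had 84 and 82 UMIs against 82, 122 and 131 and overlapping groups (log2 fold change 0.24, adjusted p = 0.519 by limma; 0.44 after TMM scaling and 0.15 without Sema3G replicate 3). Clk4, a close relative, had 20 and 62 UMIs against 57, 72 and 80, so the PBS libraries lay far apart (log2 fold change 0.77, adjusted p = 0.195 by limma). Without PBS replicate 2 it was at 1.53 (adjusted p = 0.00787 by limma; 1 of the 18 genes called higher, or 5.56%, and 0 lower, beside 1.7% and 0.327% of all genes) and without PBS replicate 1 at 0.02. Of the 15 genes for Sm-core assembly, limma tested 13, edgeR 10 and DESeq2 11, each with 0 calls, and the median over the 13 was -0.095. Of the 12 exon junction complex genes, limma tested 12, edgeR 10 and DESeq2 11, each with 0 calls, and the median over the 12 was -0.076. At an unadjusted p under 0.05 by limma, each of these lists had 1 higher and 2 lower genes (7.69% and 15.4% for Sm-core assembly, 8.33% and 16.7% for the exon junction complex, beside 6.83% and 14.2%). Without Sema3G replicate 1, limma called Strap, a protein of the SMN complex, lower (1 of 13, or 7.69%, beside 5.49% of all genes).

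Overlapping genes limit some values. Of the 81 genes, 24 overlap another gene of the table, and 11 of them have their own annotated 3′ end inside it. Rbm15b lies wholly within Manf on the same strand, and Rbm12 overlaps Cpne1 over nearly its whole length, so their levels are uncertain. The sources used here do not say whether the counting used strand, so for members with an overlap on the opposite strand, such as Hnrnpu with Cox20 and Srsf2 with Mettl23, reads of the partner cannot be told apart from their own.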

How the data were processed

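RNA of 2 PBS and 3 Sema3G samples was read at the 3′ end with UMIs (QuantSeq). The authors mapped reads to mm10, counted UMIs with Strand NGS and normalized with edgeR (3.12 per the submitters' processing notes). The deposited values are CPM for 24419 genes; the authors' own p-values, q-values and ranking score were deposited beside them and not used. The CPM are whole multiples of 1 UMI (100% of values within 0.01), which gave the counts. The sources used here name neither the gene annotation nor the handling of reads with several matches.

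The main test for such values was limma's (3.58.1, under R 4.3.3), with its trend option, on log2(CPM + 1). It covered 10088 genes whose mean reached 1 CPM, and this scale shrinks the fold changes of low genes. Adjustment was by Benjamini-Hochberg at 0.05. Alternatives were pseudocounts of 0.1 and 5, no filter, a mean of at least 5 CPM, TMM scaling, edgeR's quasi-likelihood test (4.0.16) and DESeq2 (1.42.0) on the recovered counts, each library left out and a replicate block. Removal of a lowess trend on transcript length, sums after TMM scaling and a share with Phf5a were added after the data were seen. Scripts were tested on simulated data. No 2 libraries agreed within sampling noise (chi-square per degree of freedom 1.77 for Sema3G replicates 2 and 3, 6.57 to 29.6 for other pairs). Floors and binomial intervals of shares cover counting error alone, while the 95% intervals of log2 fold changes are limma's and rest on the spread between libraries.

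The members and lists were chosen with earlier results of these data known. Named are, in each family, the 3 lowest p-values, the largest and smallest log2 fold changes and a set of well-known members, with list members past the threshold, Clk1, Clk4 and Rn45s. Srsf6, Sf3b3, Phf5a, Snrpb2, Snrpd1, Rbm27, Rbm28, Luc7l3, Srrm2, Strap, Bcas2, Celf2, Elavl1, the range of the Sm ring, the overlapping genes, the SF3b and Sm ring shares and the promoters shown were chosen after their values were seen.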

Additional observations from a re-analysis of the deposited data

How the results depend on the processing

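The number of genes called over the whole table depended on the setting. It was 182 with limma on log2(CPM + 1), 325 after TMM scaling (322 higher, 3 lower), 334 by edgeR's quasi-likelihood test (330 higher, 4 lower) and 108 with no filter (104 higher, 4 lower). Leaving out 1 library gave 26 to 856: 92 without PBS replicate 1, 205 without PBS replicate 2, 856 without Sema3G replicate 1 (303 higher, 553 lower), 26 without Sema3G replicate 2 and 28 without Sema3G replicate 3. Where 1 PBS library was left, it was assumed to vary like the Sema3G libraries.

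The number of splicing factor genes called higher was 0 with limma, 2 after TMM scaling (Rbm25 and Snrpd3), 2 by edgeR (Rbm26 and Snrpd3), 1 by DESeq2 (Rbm25) and 1 with the length trend removed (Snrpd3). It was 0 to 1 with a library left out (Hnrnpr without Sema3G replicate 1). The number called lower was 0 to 5 with a library left out, and the 5 without Sema3G replicate 1 (6.17%, beside 5.49% of all genes) were Srsf7, Srsf9, Sf3b5, Sf3b6 and Snrpb. The members' median log2 fold change less that of all tested genes was 0.115, with 0.064 for a pseudocount of 5, 0.073 with no filter and 0.030 to 0.127 with a library left out. The cause was not tested.

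PBS and Sema3G replicates share only numbers: same-numbered samples had correlations of 0.17 and 0.11 over 2 pairs, and nothing in the labels ties them. In the fit with the replicate number as a block, Sema3G replicate 3 has no PBS partner and adds nothing to the group difference. This fit has 1 residual degree of freedom. It called 573 genes (298 higher, or 2.95%, and 275 lower), 3 members lower (Srsf9, Sf3b5 and Sf3b6; 3.7%, beside 2.73% of all genes), and gave a median difference of 0.035.

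Members with differences near 0 changed sign. Under TMM scaling, edgeR and DESeq2 the log2 fold changes were 0.070, 0.046 and 0.053 for Srsf1, 0.10, 0.12 and 0.13 for Srsf2, 0.16, 0.18 and 0.19 for Hnrnpa1, 0.014, 0.012 and 0.018 for Hnrnpu, and 0.070, 0.085 and 0.092 for Hnrnpll. With the length trend removed Srsf2 was at 0.18, Hnrnpa1 at 0.25 and Hnrnpll at 0.080. With a library left out, Srsf1 ranged from -0.49 to 0.23, Srsf11 from -0.025 to 0.12, Hnrnpa1 from -0.090 to 0.056, Hnrnpu from -0.41 to 0.028 and Rbm39 from -0.0083 to 0.25, and with the replicate block Hnrnpa1 was at 0.056. The other genes named by the rule kept their direction under the alternatives that gave a value.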
